A study of Mus musculus with 4 samples.

Results

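PPAR-alpha, the nuclear receptor encoded by Ppara, and 6 genes known to respond to it or to fasting were followed through the adult life of the mouse liver. The genes were chosen by name, as probe sets annotated to the single symbol Ppara, Fgf21, Pdk4, Vnn1, Ehhadh, Acaa1b or Decr1, which gave 7 genes with 11 probe sets among 18193 genes and 45101 probe sets on the array. A probe set is a group of short oligonucleotides summarised to 1 value, and some probe sets carry the symbols of several genes. All 7 genes lay above the filter on level, and 11582 genes in all did.

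The livers came from male mice of the inbred C57BL/6J strain, which at every age ate a low-fat diet without restriction. Groups were 4, 8, 13 and 21 months of age, and the liver RNA of 6 mice was pooled on 1 array per age. The pools carry no genetic change and no drug treatment, and the youngest pool is adult, so the span runs from young adulthood to old age. With 1 array per age there is no replicate, no SD and no test between ages, and the spread between mice is unknown. Values are log2 expression, on which a difference of 1 is 2-fold, and the number of arrays limits their precision.

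PPAR-alpha is activated by fatty acids. In fasting, when adipose tissue releases fatty acids to the liver, it pairs with the retinoid X receptor and switches on genes of fatty acid uptake, oxidation in mitochondria and peroxisomes, and ketone body synthesis. Among its targets Fgf21 encodes a hormone that the fasted liver secretes. Pdk4 encodes a kinase that inactivates pyruvate dehydrogenase and so spares glucose. Vnn1 encodes the pantetheinase vanin-1, which recycles a part of coenzyme A. Ehhadh encodes the peroxisomal L-bifunctional enzyme and Acaa1b a peroxisomal thiolase, which carry out successive steps of peroxisomal β-oxidation. Decr1 encodes the mitochondrial dienoyl-CoA reductase, an auxiliary enzyme for unsaturated fatty acids.

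The arrays were close in scale, with medians of 3.73 to 3.76. Hepatocyte markers were present: the 8 of 10 listed genes with a probe set of their own, among them Alb, Ttr and Cps1, all passed the filter. Their summed level was 15.73 to 15.76 on the log2 scale, but it rests on genes such as Alb, at 13.43 to 13.49, that lie close to the top of the arrays (at least 13.66 on each) and leave little room for a difference. The dimmest marker, the urea cycle gene Ass1, was at 7.15, 6.65, 6.84 and 7.05 at 4, 8, 13 and 21 months. Its -0.50 at 8 vs 4 months was the lowest of the 8, whose median there was -0.02, with 3 higher and 5 lower. Cps1, Hpd and Tdo2, which lie farther from the top of the arrays than Alb, were at -0.14, 0.01 and 0.02. Each difference is sized against all genes. The range that holds the central 95% of all 11582 kept genes ran from -0.35 to 0.35 at 8 vs 4 months, from -0.36 to 0.48 at 21 vs 13 and from -0.35 to 0.52 at 21 vs 4. The share of all kept genes past the same size in the same direction is given as the background, at 1.5-fold and at a smaller size of 0.32 on the log2 scale.

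Expression of the 7 genes was highest at 8 months and lowest at 21 months in most cases. The 8-month pool was the highest of the 4 for all but Decr1, 6 of 7 genes, against 22.9% of all kept genes. The 21-month pool was the lowest for all but Vnn1, again 6 of 7, against 25.1% of kept genes. Both held for Ppara, Fgf21, Pdk4, Ehhadh and Acaa1b, 5 of 7 genes, against 9.86% of kept genes. For Fgf21, Ehhadh and Pdk4 the 8-month maximum rests on small differences at 13 vs 8 months, of -0.01, -0.04 and -0.06. With cyclic loess normalization Fgf21 was at 0.004 there, so which of its 2 middle pools is higher is not settled. The 7 genes were proposed with earlier results of the same arrays in view and are not independent of each other, so the shares describe these 4 pools.

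**Figure D1:**
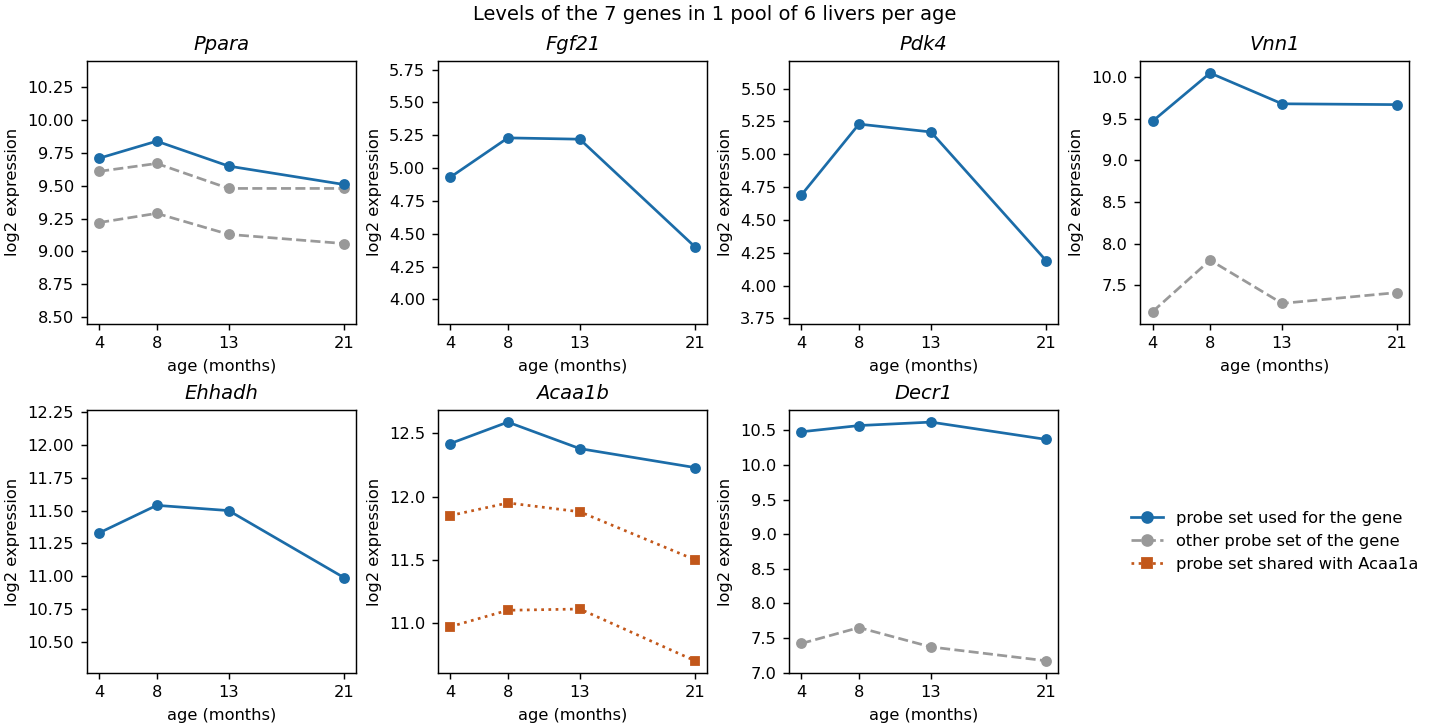
Log2 expression (y axis) of the 7 genes against age in months (x axis), 1 pooled array per point, with lines joining probe sets and an axis range of its own for each gene. Solid blue lines are the probe sets used for the genes, dashed grey lines their other probe sets, and dotted orange lines the probe sets that also read Acaa1a. Among the probe sets used for the genes, Pdk4 spans the widest range, 1.04 between 8 and 21 months, and Decr1 the narrowest, 0.25.

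Start-site sequences were examined for the 5 genes with an entry in the RefSeq promoter table of GRCm38.p6, which holds 250 bases before and 50 after each start. The windows of Fgf21 and Pdk4, which had the widest ranges, and of the peroxisomal genes Ehhadh and Acaa1b are shown in the direction of transcription. They lie at chr7:45615441-45615740 (minus strand), chr6:5496229-5496528 (minus strand), chr16:21787785-21788084 (minus strand) and chr9:119157044-119157343 (minus strand). Capitals mark exact matches on either strand to CCAAT, the CACGTG E-box, the TATA sequence TATAAA and TGCATCA, a sequence that the stress factor ATF4 can bind.
Fgf21: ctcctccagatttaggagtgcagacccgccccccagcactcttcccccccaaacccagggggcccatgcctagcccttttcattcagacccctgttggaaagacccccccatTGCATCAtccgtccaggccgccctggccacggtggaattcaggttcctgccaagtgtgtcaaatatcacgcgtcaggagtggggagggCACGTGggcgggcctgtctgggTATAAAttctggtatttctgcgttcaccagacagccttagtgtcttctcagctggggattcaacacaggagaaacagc
Pdk4: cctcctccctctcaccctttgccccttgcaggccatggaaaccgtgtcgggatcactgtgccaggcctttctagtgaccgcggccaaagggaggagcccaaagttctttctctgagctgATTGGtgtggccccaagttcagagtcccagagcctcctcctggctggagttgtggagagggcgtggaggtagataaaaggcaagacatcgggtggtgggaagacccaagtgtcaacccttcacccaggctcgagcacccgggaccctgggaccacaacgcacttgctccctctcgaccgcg
Ehhadh: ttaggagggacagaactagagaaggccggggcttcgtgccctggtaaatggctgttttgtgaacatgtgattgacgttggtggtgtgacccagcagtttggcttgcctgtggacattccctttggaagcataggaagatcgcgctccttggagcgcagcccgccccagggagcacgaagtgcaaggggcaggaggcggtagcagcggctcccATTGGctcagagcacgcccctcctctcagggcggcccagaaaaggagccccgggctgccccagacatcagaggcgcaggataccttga
Acaa1b: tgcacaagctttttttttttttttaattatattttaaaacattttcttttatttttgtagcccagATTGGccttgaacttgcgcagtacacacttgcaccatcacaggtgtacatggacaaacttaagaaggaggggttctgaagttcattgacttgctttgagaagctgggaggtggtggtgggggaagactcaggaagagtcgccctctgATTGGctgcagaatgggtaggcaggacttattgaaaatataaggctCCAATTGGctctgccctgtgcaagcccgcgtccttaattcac

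The receptor's classical element is a direct repeat of AGGTCA with a spacer of 1 base, searched as AGGTCANAGGTCA on both strands. In each of the 5 windows, Ppara included, the best match had 8 of 12 bases, and 79.8% of 32544 promoters of the same length hold a match at least as good. No window holds a single exact AGGTCA, which 16.2% of all promoters do, nor GTAAACA, a sequence that FoxO factors bind, found in 3.66%. Fgf21 alone among the 5 holds TGCATCA, from 138 to 132 bases before the start, a heptamer found in 3.09% of promoters. It also alone holds CACGTG, found in 7.17%, and TATAAA, found in 13.6%. CCAAT on the opposite strand lies from 38 to 34 bases before the start in both Ehhadh and Acaa1b, and Pdk4 holds it farther out. CCAAT is found in 37.4% of promoters, and in Acaa1b 2 of its 4 copies overlap just after the start. Matches are descriptions of letters in a short window, and elements farther from the start were not searched.

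The receptor gene itself differed little. Ppara was at 9.71, 9.84, 9.65 and 9.51 at 4, 8, 13 and 21 months. The 8-month pool was the highest and the 21-month pool the lowest, and at 21 vs 8 months the difference was -0.33, which is 1.257-fold lower, inside the central 95% of kept genes (-0.40 to 0.60). Its difference at 21 vs 4 months was -0.20. In both of its other probe sets the 8-month pool was again the highest, with 9.61, 9.67, 9.48 and 9.48 in one and 9.22, 9.29, 9.13 and 9.06 in the other. They differed by -0.13 and -0.16 at 21 vs 4 months, so all 3 probe sets were lower in the oldest pool, none by 0.32 or more. The other receptors of the family are read by dimmer probe sets. Pparg, the receptor of fat storage, was at 5.14, 5.07, 5.39 and 5.27, and Ppard at 4.07, 4.30, 4.33 and 3.90, near the filter on level of 3.74.

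Fgf21, the secreted hormone, was at 4.93, 5.23, 5.22 and 4.40 at 4, 8, 13 and 21 months. The 8- and 13-month pools were alike, differing by 0.01, and the 21-month pool stood below all 3 younger ones. At 21 vs 13 months the log2 difference of Fgf21 was -0.82, which is 1.765-fold lower, and at 21 vs 4 months the difference was -0.53. Of the 2362 kept genes within 0.5 of its mean level, 0.508% were at least as far below zero at 21 vs 4 months. Fgf21 has a single probe set of its own, whose signal is low: at 21 months it was 4.40 against the filter of 3.74. RMA compresses differences of such dim probe sets.

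Pdk4, the pyruvate dehydrogenase kinase, ran alongside. Its levels were 4.69, 5.23, 5.17 and 4.19 at 4, 8, 13 and 21 months. The 2 middle pools were again the higher ones and the 21-month pool the lowest. The difference was 0.54 at 8 vs 4 months, -0.98 at 21 vs 13 months and -0.50 at 21 vs 4 months. The step to 21 months, 1.972-fold, was the largest step between neighbouring ages of any of the 7 genes, and 0.0691% of all kept genes were as far below zero. At 21 months it was also the closest of the 7 to the filter on level.

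The other kinases that act on the same complex did not share this profile. Pdk1 was at 8.23, 8.11, 8.29 and 8.26 and Pdk2 at 7.66, 7.51, 7.74 and 7.56, both lowest at 8 months, where Pdk4 was highest. Pdk3 lay just below the filter, at 3.65 to 3.78. Of the 13 listed genes of the pyruvate dehydrogenase complex, its kinases and pyruvate entry 10 were kept. None differed by 1.5-fold in any comparison, a size that few genes reached. Depending on the comparison, 58 to 308 of all 11582 kept genes were higher by it and 41 to 81 lower. The median of the 10 genes at 21 vs 4 months was -0.03, from Pdpr, a regulator of the complex's phosphatase, at -0.15 to the pyruvate carrier gene Mpc1 at 0.15. The lowest at 21 vs 8 months was Pdhb, a subunit of the dehydrogenase, at -0.06.

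Vnn1, the pantetheinase gene, had another course, with 9.47, 10.05, 9.68 and 9.67 at 4, 8, 13 and 21 months. Here the 4-month pool was the lowest, and the 13- and 21-month pools were alike. At 8 vs 4 months Vnn1 was higher by 0.58, or 1.495-fold, a hair under the 1.5-fold size, and at 13 vs 8 months it was at -0.37. A second, dimmer probe set ran in parallel, at 7.18, 7.80, 7.28 and 7.41, with 0.62 at 8 vs 4 months. With both averaged, or with the arrays quantile or cyclic loess normalized, Vnn1 passed 1.5-fold. It was at 21 vs 4 months the single one of the 7 that was higher, by 0.20 and by 0.23 in its 2 probe sets. Its relative Vnn3 ran at 8.14, 7.95, 7.94 and 8.04, without the 8-month maximum. Among 11 kept genes of the vanin family and coenzyme A synthesis the medians were 0.03 at 8 vs 4 months and -0.04 at 21 vs 4 months. None differed by 1.5-fold, where at 21 vs 4 months 2.1% of all kept genes were higher and 0.423% lower by that size. At 21 vs 4 months the 11 genes ran from Pank1, a pantothenate kinase, at -0.14 to Nudt19, a coenzyme A hydrolase of peroxisomes, at 0.11. The lowest at 21 vs 8 months was Pank4, of the pantothenate kinase family, at -0.21.

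The peroxisomal members were highly expressed and moved by smaller amounts. Ehhadh was at 11.33, 11.54, 11.50 and 10.99 at 4, 8, 13 and 21 months. The 3 younger pools lay within 0.21 of each other and the 21-month pool below them, with a difference of -0.51 at 21 vs 13 months, or 1.424-fold, and -0.34 at 21 vs 4. The first is outside the central 95% of kept genes and the second just inside it. Hsd17b4, which encodes the D-bifunctional protein that catalyses the same steps on other substrates, was at 10.54, 10.60, 10.59 and 10.45, a range of 0.15.

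Acaa1b was at 12.42, 12.59, 12.38 and 12.23, highest at 8 and lowest at 21 months, with -0.19 at 21 vs 4 months. It has a close relative, Acaa1a, and both are read by a further pair of probe sets, which entered no count. These were at 10.97, 11.10, 11.11 and 10.70 and at 11.85, 11.95, 11.88 and 11.50. In both the 21-month pool was again the lowest, by -0.27 and -0.35 against 4 months. The brighter of the Acaa1a probe sets was at 6.91, 7.12, 6.99 and 6.74. How much of each signal comes from which relative cannot be told apart, so the size of the Acaa1b differences is uncertain while all of these probe sets were lower at 21 than at 4 months. A dimmer Acaa1a probe set was higher, by 0.07.

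Decr1, the mitochondrial member, had the narrowest range among the probe sets used for the genes, at 10.48, 10.57, 10.62 and 10.37. Its 13-month pool was the highest and the 21-month pool the lowest, with -0.25 at 21 vs 13 months and -0.11 at 21 vs 4 months. Its second probe set was at 7.42, 7.65, 7.37 and 7.17, so that its maximum fell at 8 months and its difference at 13 vs 8 months was -0.28, against 0.05 in the brighter one. Both were lowest at 21 months. Decr2, the peroxisomal counterpart, ran nearly in parallel with the brighter one, at 9.68, 9.77, 9.83 and 9.56.

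The comparison of 8 with 4 months shows the 7 genes in early adulthood. All 7 were higher at 8 months, where 47.5% of kept genes were, by a median of 0.21 against 0.00 over all kept genes. None was at least 1.5-fold higher, where 0.501% of kept genes were. Vnn1 and Pdk4 were higher by at least 0.32 on the log2 scale, 2 of 7, against 3.22% of kept genes. From 8 to 13 months the genes parted: 6 of 7 were lower at 13 months, where 45.9% of kept genes were, with a median of -0.06. Fgf21, Pdk4 and Ehhadh were within 0.06 of their 8-month level, and Vnn1, Acaa1b and Ppara were at -0.37, -0.21 and -0.19. None was at least 1.5-fold lower, where 0.363% of kept genes were, and only Vnn1 was lower by at least 0.32, where 2.87% were. At 13 vs 4 months 5 of the 7 were higher, where 51.1% of kept genes were, with a median of 0.17, and Pdk4 with 0.48 was the sole one higher by at least 0.32, where 3.96% of kept genes were. None passed 1.5-fold there, where 0.838% of kept genes were higher and 0.458% lower.

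The largest differences were those of the 21-month pool. At 21 vs 13 months all 7 were lower, where 46.4% of kept genes were, by a median of -0.25 against 0.01 over all kept genes. For Vnn1 the difference was only -0.01, and its second probe set was at 0.13. With its probe sets averaged Vnn1 was at 0.06, and with median centring at 0.01, so its direction is not settled. Pdk4 and Fgf21, 2 of 7, were at least 1.5-fold lower, against 0.458% of kept genes. With Ehhadh 3 of 7 were lower by at least 0.32, against 3.45%. Against 4 months 6 of 7 were lower at 21 months, where 45.2% of kept genes were, with a median of -0.20. None was at least 1.5-fold lower, which 0.423% of kept genes were. Fgf21, Pdk4 and Ehhadh were lower by at least 0.32, 3 of 7, against 3.17% of kept genes. At 21 vs 8 months, a pair that sets the pool where most of these genes were lowest against the one where they were highest and is therefore the widest by choice, the median was -0.38. Pdk4 at -1.04 and Fgf21 at -0.83 were at least 1.5-fold lower, against 0.699% of kept genes, and 6 of 7 were lower by at least 0.32, against 4.72%. Comparisons that share an array are not independent: 21 vs 13, 21 vs 4 and 21 vs 8 months all rest on the one 21-month pool, and 8 vs 4, 13 vs 8 and 21 vs 8 on the one 8-month pool.

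**Figure D2:**
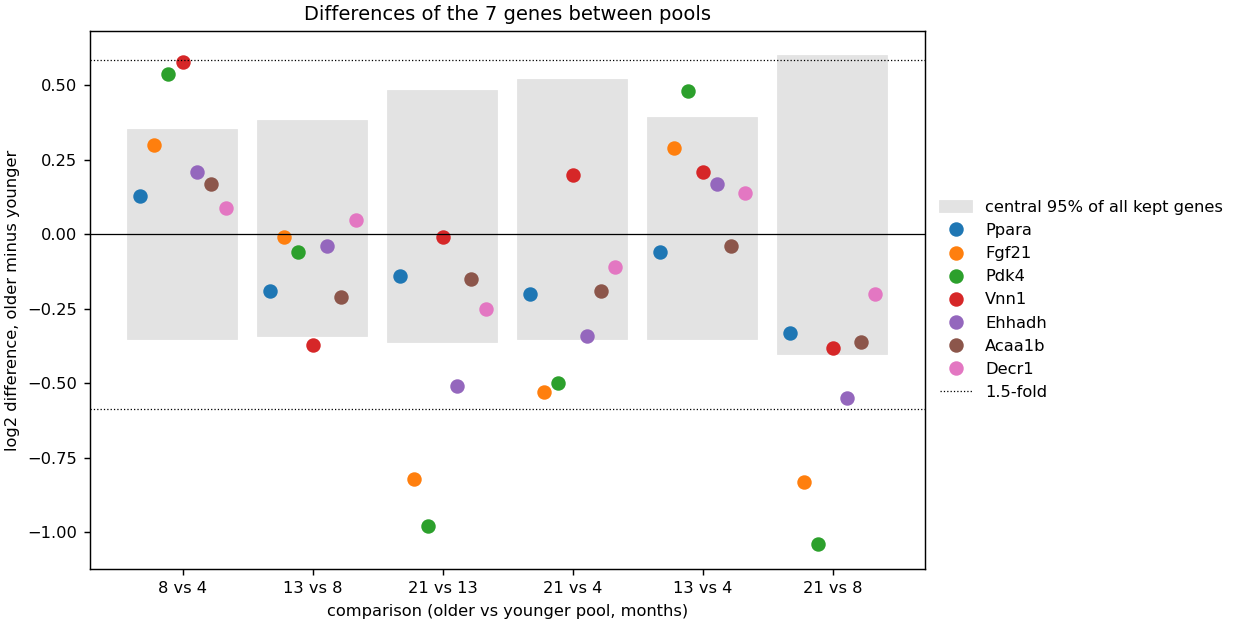
Log2 difference, older minus younger pool (y axis), of the 7 genes in the 6 comparisons between ages in months (x axis). Each point is 1 gene, grey boxes hold the central 95% of all kept genes, and dotted lines mark 1.5-fold. Pdk4 and Fgf21 lie below the lower dotted line at 21 vs 13 and at 21 vs 8 months.

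Enzymes of the same pathway in the peroxisome were mostly lower in the oldest pool. The counts of this and the following lists stand beside those over all kept genes, of which 45.2% were lower and 51.4% higher at 21 vs 4 months and 47.5% were higher at 8 vs 4. Of 22 kept genes of peroxisomal β-oxidation and peroxisomes, 19 were lower at 21 than at 4 months, with a median of -0.11. Of these 1, against 0.423% of kept genes, was at least 1.5-fold lower, Acot3, a peroxisomal acyl-CoA thioesterase, at 7.95, 8.46, 8.97 and 7.31 in age order. At 21 vs 8 months Acot3 was at -1.15, and Pex11a, which promotes peroxisome division, and the thioesterase Acot8 were both at -0.63. The fatty acyl transporter Abcd2 went the other way, with 0.55 at 21 vs 4 months and 0.63 at 21 vs 8. At 8 vs 4 months 17 of the 22 were higher, with a median of 0.09.

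Genes of fatty acid entry into mitochondria and mitochondrial β-oxidation ran in the same directions. At 21 vs 4 months 15 of 19 kept genes were lower and 3 higher, with a median of -0.06, where the peroxisomal list had a median of -0.11. The mean of -0.13 includes the thioesterase genes Acot1 and Acot2, the lowest of the list. The peroxisomal list had a mean of -0.11. At 8 vs 4 months 16 were higher, with a median of 0.07. Acot1, at 8.63, 9.21, 9.04 and 7.66, was the single one at least 1.5-fold lower at 21 vs 4 months, at -0.97. It encodes a cytosolic thioesterase listed here for its closeness to the mitochondrial enzyme Acot2, which was at -0.43. Cpt1a, which admits long fatty acids to mitochondria and is a fasting target, was at 10.51, 10.62, 10.42 and 10.49, and the hydratase Echs1 was the highest of the list at 21 vs 4 months, with 0.14. Of 4 kept genes of ketone body synthesis and transport none differed by 1.5-fold in any comparison. At 21 vs 4 months 2.1% of all kept genes were higher and 0.423% lower by that size. The 4 genes there ran from the thiolase Acat1 and the transporter Slc16a1, both at -0.11, to Oxct1, a ketone-using enzyme, at 0.27.

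Of 6 kept genes of microsomal ω-oxidation 2 were at least 1.5-fold lower at 21 vs 4 months, against 0.423% of kept genes, with a median of -0.34. The ω-hydroxylase genes Cyp4a31 and Cyp4a14, classical targets of the receptor in rodents, were at -0.97 and -0.65, and Cyp4f14 was at 0.04. Cyp4a14 ran at 11.80, 11.91, 11.85 and 11.15, with the 3 younger pools close together. The other lipid targets were divided at 21 vs 4 months, where of 27 kept genes 13 were higher and 12 lower, with a median of 0.00. Against 8 months 20 of the 27 were lower at 21 months, with a median of -0.18, where 45.4% of kept genes were lower. At 8 vs 4 months 18 were higher, with a median of 0.12, and at 13 vs 4 months 19 were, where 51.1% of kept genes were higher. Angptl4, a fasting-induced lipase inhibitor, was at -0.67 and the retinol saturase gene Retsat at -0.60, whereas the fatty acid transporter Cd36 was at 0.62. At 21 vs 8 months G0s2, an inhibitor of fat breakdown, was at -0.87 and the lipoprotein lipase gene Lpl at 0.70. At 21 vs 4 months G0s2 was at 0.10 and Lpl at 0.22. Angptl4 also parted from the 7 genes at 8 vs 4 months, at -0.32.

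**Figure D3:**
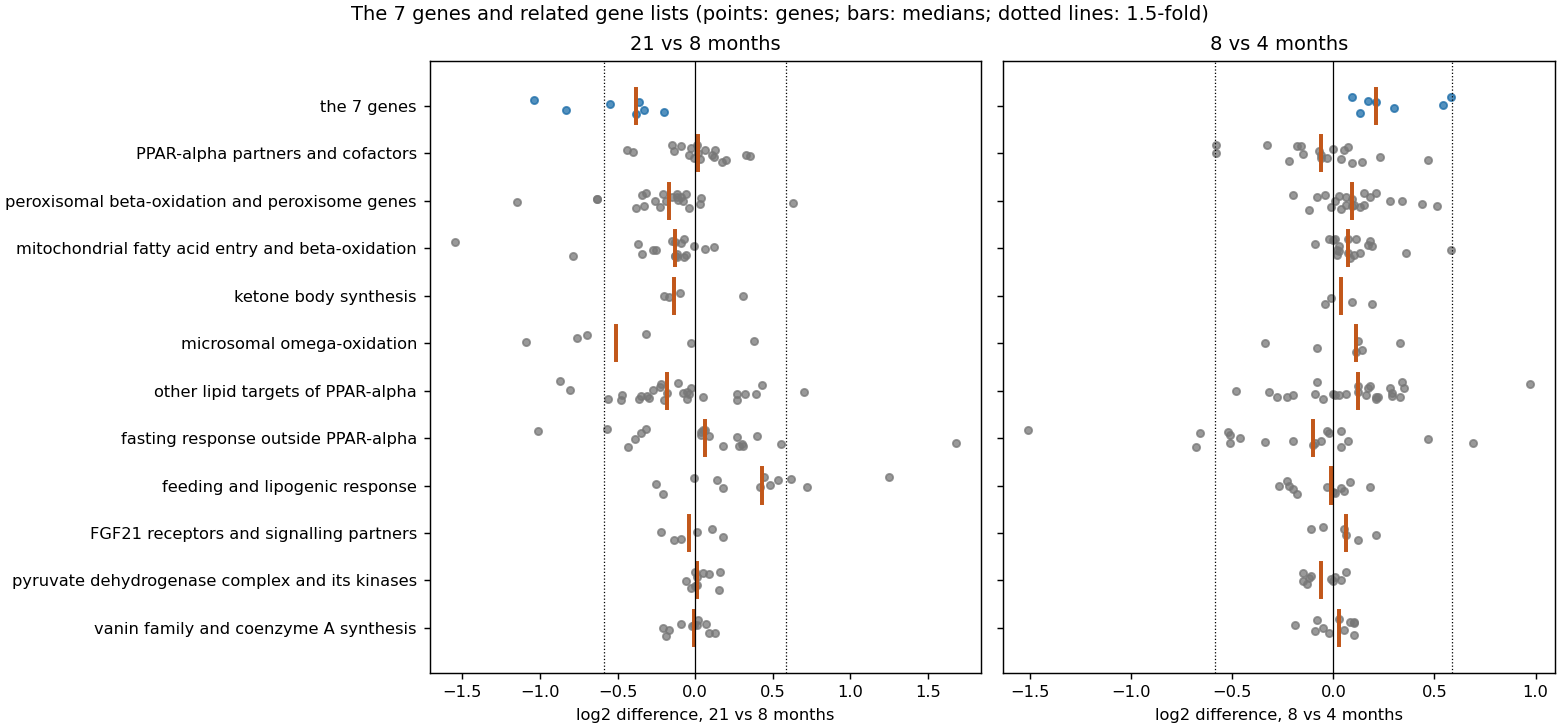
Log2 difference (x axis) of each kept gene at 21 vs 8 months (left) and 8 vs 4 months (right), by gene list (y axis). Points are genes, orange bars are list medians and dotted lines mark 1.5-fold. The 7 genes, in blue, have a median of -0.38 on the left and 0.21 on the right, and the feeding and lipogenic list has 0.43 and -0.01.

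Partners and cofactors of the receptor differed in both directions. Of 19 kept genes 11 were lower and 7 higher at 21 vs 4 months, with a median of -0.05. None was past 1.5-fold, where 2.1% of all kept genes were higher and 0.423% lower by that size. Rxra, the main heterodimer partner in liver, was at 8.60, 8.57, 8.69 and 8.74. Ppargc1a and Lpin1, coactivators that rise in fasting, were both at -0.58 at 8 vs 4 months, when all 7 genes were higher, and Lpin1 was at -0.47 at 21 vs 4 months. Ppargc1b, the related coactivator, was highest at 8 months, at 6.80, 7.27, 7.15 and 6.83 in age order. The acetyltransferase gene Ep300 was the highest of the list at 21 vs 8 months, with 0.35.

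The receptors through which FGF21 acts differed less than Fgf21. Klb, the co-receptor β-Klotho, was at 7.53, 7.65, 7.64 and 7.43, and Fgfr1, its main receptor partner, at 4.87, 4.82, 5.21 and 4.93. Of 6 kept genes 3 were higher and 3 lower at 21 vs 4 months, from Fgf1 at -0.25 to Fgfr4 at 0.24, with a median of 0.01.

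Fasting genes that do not depend mainly on PPAR-alpha gave another picture. Of 19 kept genes 10 were lower and 9 higher at 21 vs 4 months, with a median of -0.05. Pck1, the rate-limiting enzyme gene of gluconeogenesis, was at 11.77, 11.75, 11.79 and 11.80, and G6pc, which releases glucose, at 11.17, 11.11, 10.89 and 10.79. Igfbp1, which insulin represses, was at 10.76, 10.08, 10.42 and 10.35, lowest in the 8-month pool where the 7 genes were high. Nr4a1, at 6.47, 7.16, 6.79 and 6.59, and the dimmer Sik1, at 3.78, 4.25, 4.12 and 3.82, were highest in that pool. At 8 vs 4 months 14 of the 19 were lower and 5 higher. At least 1.5-fold lower were 3 and higher 1, against 41 and 58 of all 11582 kept genes. Gadd45g, a stress-response gene, was at -1.47 and Cdkn1a at 0.30 at 21 vs 4 months. Ddit4, an mTOR inhibitor, was at 7.10, 5.59, 6.84 and 7.27 in age order. Its difference of 1.68 at 21 vs 8 months rests on the low 8-month pool, and at 21 vs 4 months it was 0.17.

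Most genes of the fed state were higher in the oldest pool. Of 12 kept lipogenic genes 9 were higher at 21 vs 4 months, 3 of them at least 1.5-fold, against 2.1% of kept genes, with a median of 0.22. Thrsp, a lipogenic regulator, was at 9.19, 8.92, 9.66 and 10.17, Srebf1 at 8.00, 8.18, 8.56 and 8.90, and Fasn, the fatty acid synthase gene, at 8.19, 8.23, 8.15 and 8.85. Me1, the malic enzyme gene, was the lowest of the list at -0.24. At 8 vs 4 months, when the 7 genes were higher, this list had a median of -0.01.

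Feeding and time of day move several of these genes in mice, and the labels give neither the hour nor a fast before collection. Clock genes differed between the pools: the output gene Dbp was at 7.98, 9.07, 9.14 and 8.79 and Arntl, which peaks at another phase, at 6.09, 5.66, 5.44 and 5.85. Of 15 listed clock genes 13 were kept. At least 1.5-fold higher were 3 of them at 8 vs 4 months, against 0.501% of kept genes, 4 at 13 vs 4 months, against 0.838%, and 2 at 21 vs 4 months, against 2.1%. Arntl was at least 1.5-fold lower at 13 vs 4 months, where 0.458% of kept genes were. The medians of the list were 0.17, 0.24 and 0.12 in these comparisons. Their part in the result was not tested. Macrophage markers also differed, in the opposite sense to the 7 genes. All 10 listed markers were kept, and their summed level was 11.41, 10.99, 11.47 and 12.19 at 4, 8, 13 and 21 months, lowest at 8 and highest at 21 months. All 10 were lower at 8 than at 4 months, and all 10 higher at 21 than at 4. Neutrophil markers, 6 of 7 with a probe set of their own and 4 above the filter, summed to 6.89, 7.15, 7.30 and 7.90. The part of these cells in the result was not tested, and in whole liver RNA fewer hepatocytes and less RNA per hepatocyte cannot be told apart.

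Markers of other tissues and of bile ducts varied in level. Of the adipocyte markers with a probe set of their own Adipoq and Lep lay below the filter, and the sum ran from 5.13 to 5.28. Muscle markers summed to 6.04 to 6.14, kidney markers to 5.51 to 5.66 with Umod and Slc12a1 below the filter, and exocrine pancreas markers to 8.35 to 8.61 with Cpa1 below it and Cela1 the brightest, at 7.64 to 7.93. Bile duct markers summed to 6.76 to 7.46, mostly Cdh1, at 6.99, 6.55, 5.96 and 6.07 in age order. The duct keratin gene Krt19, below the filter by its mean, was at 3.48, 4.99, 3.32 and 2.99. It was highest at 8 and lowest at 21 months like most of the 7 genes, with 1.51 at 8 vs 4 months and -2.00 at 21 vs 8. Krt7, also below the filter, was at 2.98, 3.27, 3.18 and 2.93. The kept duct markers Epcam, at 4.04, 4.13, 4.02 and 4.30, and Sox9, at 3.77, 3.86, 3.46 and 3.92, were instead highest at 21 months. The pancreas sum and the neutrophil gene Ltf, at 3.28, 5.22, 3.53 and 3.56, were, like Krt19, highest in the 8-month pool. Camp and Mpo, below the filter, also had their maximum there, at 3.71 and 3.16. The brighter neutrophil genes S100a8, at 5.50, 5.41, 6.22 and 6.85, and S100a9, at 4.69, 4.53, 5.14 and 6.14, were lowest at 8 months. Both were highest at 21 months, as was Ngp, at 4.28. The part of these cells in the result was not tested.

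Profiles nearest to those of the 7 genes were sought among all other kept genes over the 4 arrays, as the smallest root mean square difference between log2 profiles centred on their means. Decr2 was the second nearest to Decr1, at 0.007, after the cell cycle kinase gene Cdk2 at 0.004. Acot2 was the second nearest to Fgf21, at 0.057, between Ubl4b at 0.054 and the small heat shock protein gene Hspb1 at 0.061. Hsdl2, a peroxisomal dehydrogenase-like gene, was next to Ehhadh at 0.025, with Col27a1 at 0.023 and Sipa1l2 at 0.025. These 3 genes of lipid metabolism were also on the lists above.

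The remaining neighbours were not on the lists. Nearest to Pdk4 were Cyp26b1, which degrades retinoic acid, at 0.079, Chrna2 at 0.104 and Cgref1 at 0.116. Cyp26b1 was at 5.21, 5.96, 5.81 and 4.76 in age order. Nearest to Vnn1 were Fam110c at 0.018, Snhg5 at 0.026 and Mmp7 at 0.033, to Ppara Sdccag8 at 0.007 and Chrdl2 and Tmem119 at 0.008, and to Acaa1b Clcn5 at 0.008, Cmtm4 at 0.012 and Capn11 at 0.015. Pak6 was the third nearest to Decr1, at 0.007. Nearest to the mean of the 7 centred profiles, which was -0.06, 0.23, 0.11 and -0.29 in age order, were Grin3b at 0.025, Mcm10 at 0.032 and Ramp3 at 0.033. With 4 arrays and 11582 genes close profiles are found for any gene, and small profiles have closer neighbours than wide ones.

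**Figure D4:**
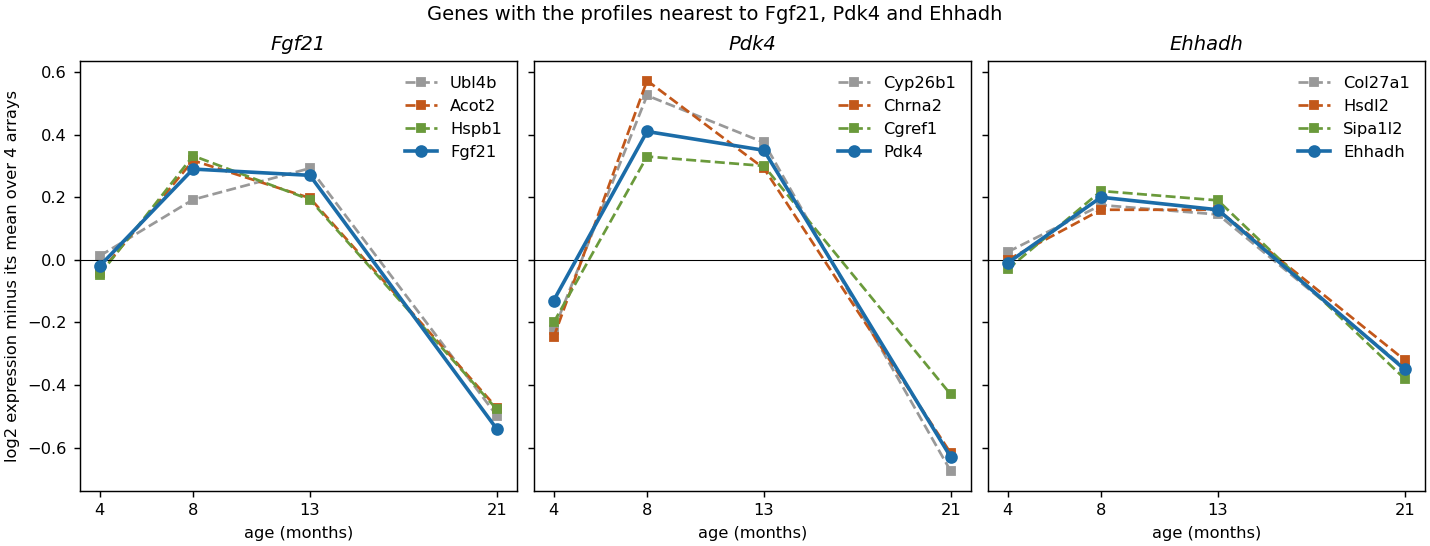
Log2 expression minus its mean over the 4 arrays (y axis) against age in months (x axis) for Fgf21, Pdk4 and Ehhadh, in blue, and for the 3 genes nearest to each, dashed, 1 pooled array per point. Fgf21 lies at -0.54 at 21 months, Pdk4 at -0.63 and Ehhadh at -0.35, and each has its maximum at 8 months.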

How the data were processed

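The deposited values are log2 expression values made by the authors with RMA, per the submitters' processing notes. RMA corrects background, normalizes between arrays and summarises probes per set. The sources used here name neither its version nor the arrays that entered it together. RMA aligns array distributions, so a shift of most genes in a pool would not show. Each array holds pooled RNA of 6 mice, extracted with Trizol and labelled with biotin, per the labels' protocols. Groups follow the labelled age.

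Gene names come from the platform annotation of the array. Of 45101 probe sets 34945 had 1 symbol, 932 several, and 64 were controls. Of the 34945, 34741 matched a GRCm38.p6 gene identifier, with 0 symbols changed. Each gene was read by its probe set with the highest mean. Genes with a mean at or above 3.74, the median of probe set means, were kept. No test was run, since 1 array per age leaves none between ages, and with 4 arrays a fitted age slope would have only 2 residual degrees. Differences are older minus younger, counted at 1.5-fold (0.58 on the log2 scale), with a smaller size of 0.32 beside it. The members, the 11 pathway lists and the 8 marker lists were chosen with earlier results of these data known. The clock list was added after the data were seen.

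Named genes were the 7 members and their close relatives. From each pathway list they were the highest and lowest gene at 21 vs 4 and 21 vs 8 months and those past 1.5-fold at 21 vs 4 months. To these were added the 3 nearest profiles, among genes whose range was at least 50% of the profile's. Other named genes, among them Cpt1a, Ppargc1a, Fgfr1, Krt19, Ltf, Ass1, Pck1, G6pc, Igfbp1, Pex11a and Acot8, were chosen after their values were seen.

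The promoter table comes from RefSeq, matched by symbol for 5 of the 7 genes. Alternatives were the mean over probe sets, other filters on level, median centring, quantile and cyclic loess normalization, other folds, the mean for the median, leaving out each gene, and the mean of the 3 younger arrays as baseline. The counting and profile steps were tested on simulated data. Tools were R 4.3.3 with limma 3.58.1 for the alternative normalizations, and Python 3.11.15 with pandas 2.3.3, numpy 2.4.6 and matplotlib 3.10.9.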

Additional observations from a re-analysis of the deposited data

How the results depend on the processing

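The median difference of the 7 genes kept its sign in every comparison under each alternative run. It moved by less than the spread of all kept genes, taken over their differences in the same pair of arrays. That is a spread between genes and does not measure the spread between mice, which is unknown. Of 247 alternative values of single genes 243 moved by less than the spread between genes, without a change of sign that exceeded it. The exceptions were Fgf21 and Pdk4 at 21 months against the mean of the 3 younger pools, at -0.727 and -0.84, Vnn1 in the same comparison, which turned to -0.063, and Decr1 at 13 vs 8 months with its probe sets averaged, at -0.115. For the first 3 the other baseline itself makes the change, as it takes in the 8- and 13-month pools, both higher than the 4-month pool. Counts past a fold were small and moved with it. At 8 vs 4 months 1 gene, Vnn1, passed 1.5-fold with probe sets averaged, with quantile normalization and with cyclic loess. At 21 vs 8 months the count was 3 under both of these normalizations, with Ehhadh at -0.599 and -0.601. At a size of 0.32 on the log2 scale the counts were 2 at 8 vs 4 months, 1 at 13 vs 8, 3 at 21 vs 4, 1 at 13 vs 4 and 6 at 21 vs 8. At 2-fold the counts were 0 at 21 vs 13 and 1 at 21 vs 8. With the filter at the 75th percentile, which drops Fgf21 and Pdk4, the counts at 21 vs 13 and 21 vs 8 months were 0 of the 5 genes left.

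Of the 11 pathway lists 4 had a median below 0 at 13 vs 8 months, which became 2 with median centring and 7 with quantile normalization or cyclic loess, and 3 at 13 vs 4 months, which became 5 with probe sets averaged. With probe sets averaged, the FGF21 receptor list turned to -0.007 at 13 vs 4 months, against 0.17, and the list of fasting genes outside PPAR-alpha to -0.18, against 0.02; the cause was not tested. No paired analysis was possible because each age has 1 array. Without detection calls, a low level cannot be told from background, which limits Fgf21 and Pdk4 most.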
